A study of Mus musculus with 6 samples.

Results

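The IL-6 family of cytokines and its shared receptor was followed here through 5 genes: the ligands *Il6*, *Osm* and *Lif*, the IL-6 receptor α chain *Il6ra*, and the common signalling chain gp130, encoded by *Il6st*. The members were taken by gene symbol, and all 5 were found among the 15415 genes of the deposited table. RNA had been sequenced from peritoneal macrophages (PEMs), which are cells harvested from the peritoneal cavity 3 days after an injection of starch. The 3 knockout libraries were made from *Tim-4* fl/fl mice that carried LysM-Cre and the 3 control libraries from *Tim-4* fl/fl mice without it, all male C57BL/6J mice of 6 to 8 weeks per the study's methods. Both groups carry the floxed *Tim-4* alleles, and Cre, driven by the lysozyme gene *Lyz2* and therefore active in myeloid cells in general, is carried by the knockout mice only, so that Cre itself and the loss of *Tim-4* cannot be told apart. LPS is the labelled treatment of all 6 libraries, and no unstimulated library was analysed here. Neither pooling of animals nor what the replicate numbers share is stated, so p-values measure the spread between these libraries only.

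The genotype entry of the sample labels is swapped relative to the sample titles, and the libraries were grouped by title. *Timd4*, the gene of Tim-4, had levels of 0.333, 0.394 and 0.246 FPKM in the knockout libraries (1 to 3 in order) and 19.5, 12.05 and 1.19 FPKM in the controls. FPKM is the read number per length of gene and per depth of library, so levels can be set side by side between genes. All knockout libraries were below all control libraries in *Timd4*, which matches the titles, but control library 3 stood far below the other controls. Between 36170767 and 42217558 reads per library fell on the listed genes. The summed level of 6 macrophage markers was between 2563 and 2840 FPKM in the knockout and between 2188 and 2659 FPKM in the control libraries. *Cd68* (816 to 1685 FPKM) was higher and *Csf1r* (83.3 to 180) and *Cd14* (262 to 631) were lower in every knockout library than in any control. *Adgre1* (235 to 364), *Itgam* (245 to 400) and the low *Mertk* (0.821 to 12.1) overlapped between the groups.

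Cytokines of this family signal through gp130. IL-6 first binds its α receptor, which may sit on the membrane or be shed, and the pair then joins gp130, whereas leukemia inhibitory factor (LIF) and oncostatin M (OSM) join gp130 with the LIF receptor or the OSM receptor. The engaged gp130 activates Janus kinases and STAT3, and STAT3 induces SOCS3, which shuts gp130 down again. Macrophages exposed to LPS are a major source of IL-6, whose gene is switched on by NF-κB together with C/EBP and AP-1 factors.

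The 5 members lay at very different levels. *Il6* was the most abundant in 6 of 6 libraries, *Osm* came next in 6 of 6, and *Il6ra* was the lowest in 6 of 6. Mean levels in the control libraries were 1091 ± 856 FPKM for *Il6*, 22.5 ± 8.72 for *Osm*, 7.80 ± 0.532 for *Lif*, 6.38 ± 1.46 for *Il6st* and 1.32 ± 0.266 for *Il6ra* (SD, n = 3 each). In the knockout libraries they were 431 ± 93.6, 14.9 ± 4.15, 4.63 ± 3.11, 6.82 ± 0.531 and 0.798 ± 0.124 FPKM in the same order (SD, n = 3 each). *Lif* and *Il6st* were neighbours whose order was not fixed. *Lif* lay above *Il6st* in 3 of 3 control libraries and in 1 of 3 knockout libraries, and their means in a group were closer than the larger of their SDs. Among the 9030 genes with a mean of at least 1 FPKM in one group, which were the genes tested, *Il6* took place 71 by its mean over all libraries, while *Osm*, *Lif* and *Il6st* took places 2579, 4968 and 4823. *Il6ra* took place 8613 and passed this filter through the control group alone.

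**Figure D1:**
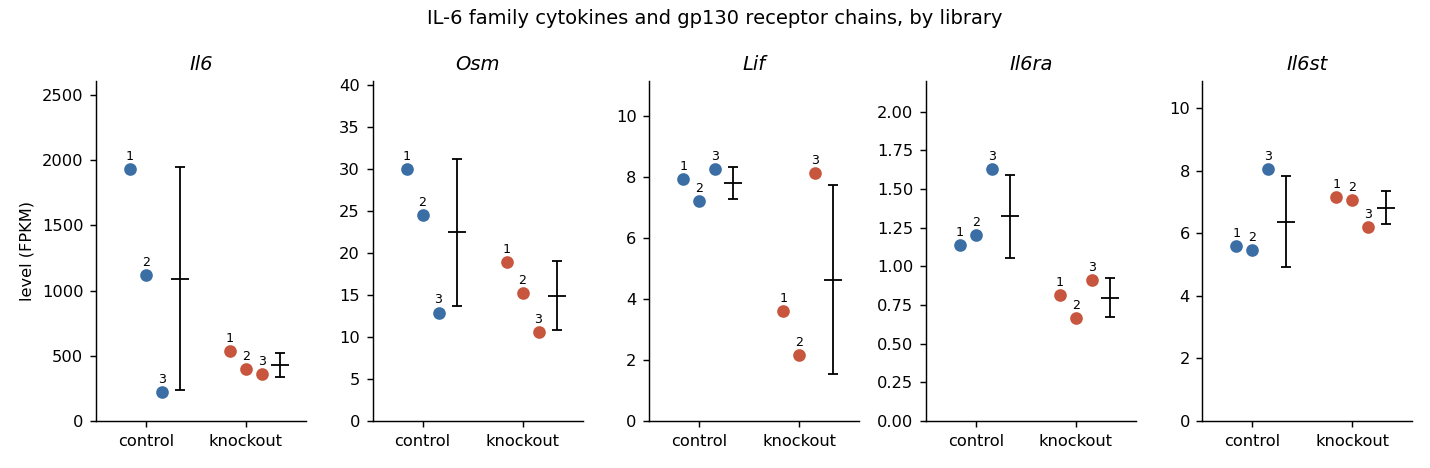
Level of each member in FPKM (vertical axes, from 0, scaled per gene) in the control (blue) and knockout (red) libraries, with replicate numbers above the points and the mean ± SD as black bars. *Il6* spans 220 to 1932 FPKM within the controls, *Lif* splits the knockout libraries, and *Il6ra* is the member whose groups are apart.

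None of the 5 members passed an adjusted p of 0.05 between the groups. The groups were set against each other on log2(FPKM + 1) in limma, adjusted by the Benjamini-Hochberg method over the 9030 genes. In this test 7.31% of all genes passed, 2.57% with a higher and 4.74% with a lower level in the knockout libraries, so 0 of 5 was not far from the background. At an unadjusted p below 0.05 the count was 1 of 5 (*Il6ra*), where 27.6% of all genes had such a p. limma voom on the reads recovered from the FPKM also called 0 of 5, where it called 584 of all 9030 genes. *Il6*, *Osm*, *Lif* and *Il6ra* had negative log2 fold changes and *Il6st* a positive one, and each of these signs was the same in the 12 alternative fits. The median over the 5 was -0.52, against -0.11 over all genes tested. Rescaling the FPKM by the median of ratios moved the latter to -0.0045, and the members then had log2 fold changes of -0.75 (*Il6*), -0.40 (*Osm*), -0.68 (*Lif*), -0.30 (*Il6ra*) and 0.21 (*Il6st*).

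**Figure D2:**
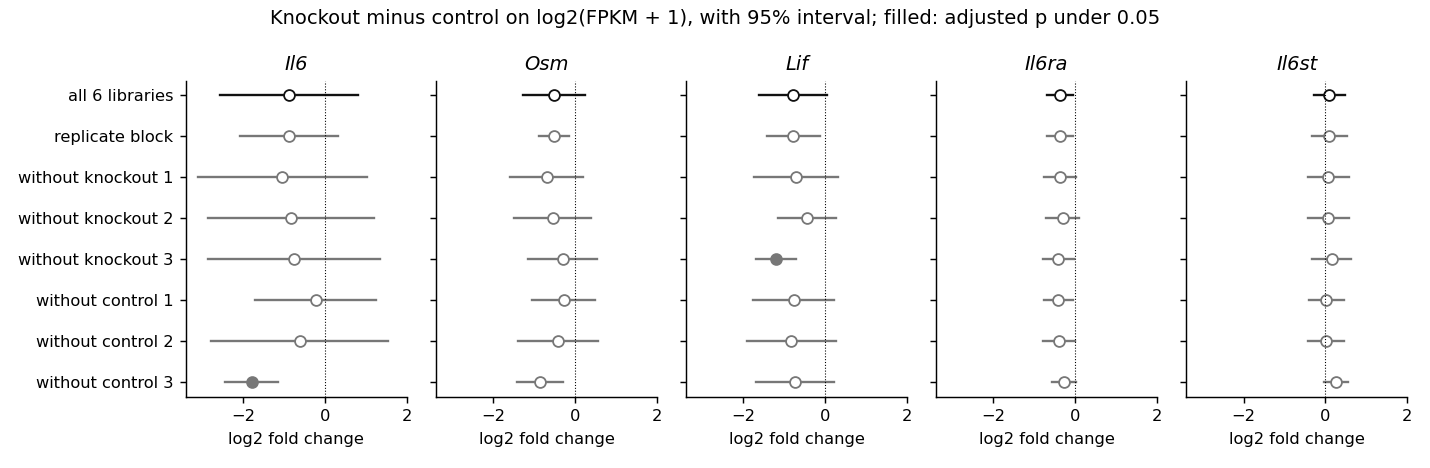
Log2 fold change (horizontal axes, knockout minus control on log2(FPKM + 1)) of each member with its 95% interval in limma, with all 6 libraries (black), with the replicate number as a block, and with each library left out (grey). Filled points have an adjusted p below 0.05, which holds for *Il6* without control library 3 (-1.79) and for *Lif* without knockout library 3 (-1.20).

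*Il6* (Entrez 16193) encodes the cytokine that gives the family its name. It had levels of 537, 399 and 358 FPKM in the knockout libraries (1 to 3 in order) and 1932, 1121 and 220 FPKM in the controls. Control libraries 1 and 2 lay above all knockout libraries and control library 3 below all of them, so the groups overlapped. The log2 fold change was -0.88, with a standard error (SE) of 0.72 and a 95% interval from -2.56 to 0.81 (limma, adjusted p = 0.46). The highest control library held 8.77 times the level of the lowest, against 1.50 times among the knockout libraries. On the log2 scale the SD within the controls was 1.63, larger than that of 99.8% of the tested genes. Read numbers did not limit these values, since *Il6* had between 9091 and 87012 reads per library, or 0.0251% to 0.220% of all reads.

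Control library 3 decided the outcome for *Il6*. Without it the log2 fold change was -1.79 (SE 0.27, limma adjusted p = 0.00867), a fitted level 3.46 times as high in the remaining controls, in a fit in which 14.8% of all genes passed. Without control library 1 it was -0.23 (limma, adjusted p = 0.819) and without control library 2 it was -0.62 (limma, adjusted p = 0.718). Control library 3 was also the control with the lowest *Timd4* (1.19 FPKM), the lowest *Osm* and the fewest reads. Whether any of these bears on its *Il6* was not tested.

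The sequence upstream of *Il6* is shown because the data below include the factors that bind it. The 250 bases before the RefSeq start lie at chr5:30012864-30013113 (plus strand, GRCm38.p6), and those of *Lif*, the cytokine whose libraries ordered differently, at chr11:4257318-4257567 (plus strand, GRCm38.p6). Capitals mark matches on either strand to 4 motifs: GGGNNNTTCC for NF-κB, TTGNNNAA for C/EBP, TGAGTCA for AP-1 and TTCNNNGAA for STAT factors.
Il6: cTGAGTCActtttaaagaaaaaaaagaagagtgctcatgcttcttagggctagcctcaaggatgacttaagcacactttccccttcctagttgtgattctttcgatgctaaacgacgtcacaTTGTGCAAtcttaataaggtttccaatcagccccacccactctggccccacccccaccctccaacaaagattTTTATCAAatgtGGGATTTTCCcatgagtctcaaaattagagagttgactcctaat
Lif: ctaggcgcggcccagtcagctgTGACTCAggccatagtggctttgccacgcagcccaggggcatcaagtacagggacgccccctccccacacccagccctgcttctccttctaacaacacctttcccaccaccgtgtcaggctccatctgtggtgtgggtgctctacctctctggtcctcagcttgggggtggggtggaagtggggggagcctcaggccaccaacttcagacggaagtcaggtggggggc
The *Il6* window held 1 NF-κB match from base -44 to -35 before the start, 2 C/EBP matches from -128 to -121 and from -56 to -49, and 1 AP-1 match from -249 to -243. The *Lif* window held 1 AP-1 match from -228 to -222 and no match to the NF-κB or C/EBP letters. Of 32851 such windows in the RefSeq table, 4.65% held the NF-κB letters, 33.3% the C/EBP letters, 4.46% the AP-1 letters and 7.02% the STAT letters, and none of the windows of *Il6*, *Lif*, *Il6ra* and *Il6st* held the last. *Il6ra* had 1 C/EBP match and *Il6st* none of the 4 motifs. No window was listed for *Osm*. These are matches of letters, and binding was not measured.

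*Osm* (Entrez 18413) encodes oncostatin M, a cytokine released by activated myeloid cells. It had levels of 18.9, 15.3 and 10.6 FPKM in the knockout libraries (1 to 3 in order) and 30.0, 24.5 and 12.9 FPKM in the controls. Control libraries 1 and 2 were above every knockout library, and control library 3 fell between knockout libraries 2 and 3. The log2 fold change of -0.52 (SE 0.33, 95% interval -1.28 to 0.25) gave 0.34 as its limma adjusted p. With the replicate number as a block the SE was 0.14, the 95% interval -0.87 to -0.16 and the limma adjusted p 0.0775, and *Osm* was lower in the knockout library at each of the 3 replicate numbers. Without control library 3 it was -0.85 (limma, adjusted p = 0.0552), and without control library 1 it was -0.28 (limma, adjusted p = 0.567).

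*Lif* (Entrez 16878) encodes leukemia inhibitory factor, known for keeping embryonic stem cells undifferentiated and also made by activated macrophages. It had levels of 3.61, 2.16 and 8.13 FPKM in the knockout libraries (1 to 3 in order) and 7.94, 7.22 and 8.25 FPKM in the controls. Knockout libraries 1 and 2 were well below all controls, while knockout library 3 lay inside the control range. The controls differed by a factor of 1.14 at most and the knockout libraries by 3.76. The log2 SD of 0.77 within the knockout libraries was larger than that of 99.4% of the tested genes. The log2 fold change was -0.78 (SE 0.35, 95% interval -1.61 to 0.04, limma adjusted p = 0.199). With the replicate number as a block the interval was -1.43 to -0.14 (limma, adjusted p = 0.115). Without knockout library 3 it was -1.20 (SE 0.20, limma adjusted p = 0.0283), a fitted level 2.30 times as high in the controls, in a fit in which 5.85% of all genes passed. Without knockout library 2 it was -0.44 (limma, adjusted p = 0.521). *Lif* and *Osm* are next to each other on chromosome 11 with 0 protein-coding genes between them in RefSeq (GRCm38.p6), yet knockout library 3 had the highest *Lif* and the lowest *Osm* of its group.

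*Il6ra* (Entrez 16194) encodes the chain that binds IL-6 itself. It had levels of 0.817, 0.666 and 0.912 FPKM in the knockout libraries (1 to 3 in order) and 1.14, 1.20 and 1.63 FPKM in the controls. Of the 5 members it was the 1 whose groups did not overlap, with every knockout library below every control library. It was tested because the control mean passed the filter, so a lower knockout level was in part a condition of entry, and the separation is given as a description. Groups without overlap were found in 34.1% of all tested genes, and in 23.0% with the knockout libraries lower. The log2 fold change on the log2(FPKM + 1) scale was -0.37 (SE 0.13, 95% interval -0.68 to -0.05, limma adjusted p = 0.135). The pseudocount of 1 understates the change of a gene this low. With a pseudocount of 0.1 the log2 fold change was -0.66 (limma, adjusted p = 0.137). Over the 12 alternatives the adjusted p ran from 0.0961 to 0.422 in limma.

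The level of *Il6ra* rested on few reads. Knockout libraries 1 to 3 held 116, 95 and 126 of its reads, and control libraries 1 to 3 held 152, 158 and 199. Exact 95% Poisson intervals, which cover counting error only, were 105 to 150 reads for the highest knockout library and 129 to 178 reads for the lowest control library. The intervals of these neighbouring libraries overlapped, and the reads are not scaled for the depth of the library.

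*Il6st* (Entrez 16195) encodes gp130, the signalling chain shared by IL-6, LIF and OSM. It had levels of 7.17, 7.08 and 6.21 FPKM in the knockout libraries (1 to 3 in order) and 5.59, 5.48 and 8.06 FPKM in the controls. The controls lay on both sides of the knockout libraries, with control library 3 the highest of all. The log2 fold change was 0.10 (SE 0.17, limma adjusted p = 0.725), and its 95% interval ran from -0.29 to 0.49. Without control library 3 it was 0.26 (limma, adjusted p = 0.219).

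The genes nearest in profile were found for each member by the root mean square (RMS) difference of log2(FPKM + 1), each gene centred on its own mean over the 6 libraries. There were 5460 candidate genes with a mean of at least 5 FPKM. For *Il6* they were *Ccl8*, a monocyte-attracting chemokine (RMS difference 0.15), *Cfb*, complement factor B (0.21), and *Pnp2*, a purine nucleoside phosphorylase (0.25), where the RMS of *Il6* about its own mean was 1.05. *Cfb* had levels of 180, 174 and 191 FPKM in the knockout libraries (1 to 3 in order) and 725, 484 and 86.3 FPKM in the controls. It shared the high control libraries 1 and 2 and the low control library 3. For *Osm* the nearest were *Hspa8*, a constitutive heat shock protein, *Pdlim1* and *AU020206* (RMS differences 0.15, 0.17 and 0.19). For *Lif* they were *Zadh2*, *Slc6a12*, a betaine transporter, and *Map3k5*, the stress kinase ASK1 (0.16, 0.17 and 0.17), and all 3 were higher in knockout library 3 than in the other knockout libraries. *Map3k5* had levels of 7.33, 5.50 and 11.9 FPKM in the knockout libraries (1 to 3 in order) and between 12.8 and 14.9 FPKM in the controls. *Il6ra* was nearest to *Arih2*, *Csnk1g2* and *Casc3* (0.029 each), and *Il6st* to *Yju2*, *Polr3a* and *Tmem179b* (0.033, 0.039 and 0.047). The pseudocount of 1 narrows the profile of *Il6ra*, a gene near 1 FPKM, so its small distances depend on it. Reads of *Pnp2* and *Hspa8* are uncertain, since near-identical copies or pseudogenes exist. These lists describe 6 libraries and carry no test.

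**Figure D3:**
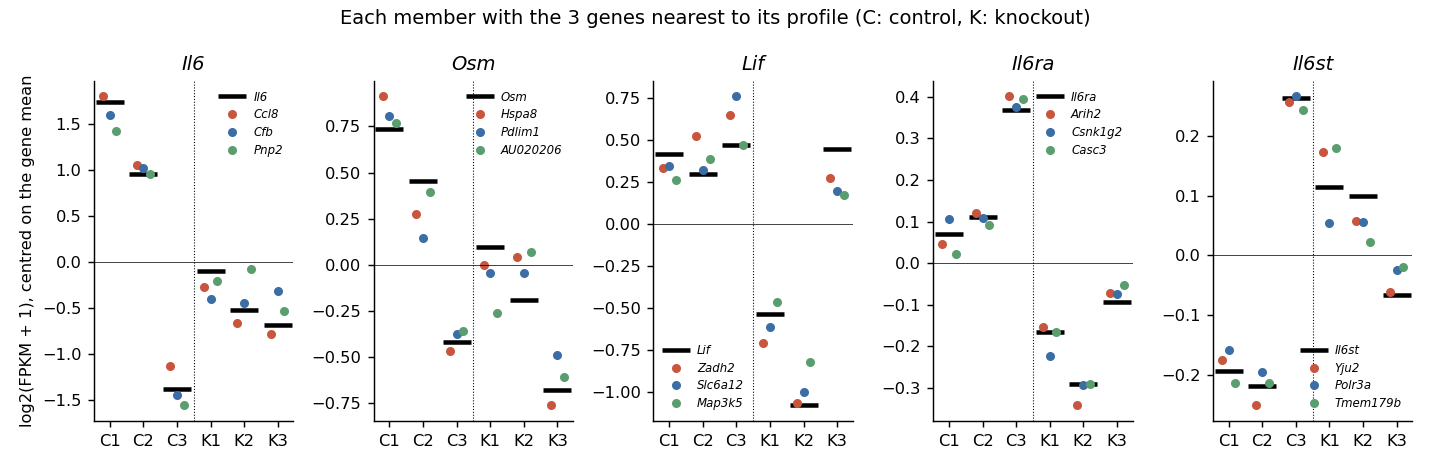
Log2(FPKM + 1) of each member (black bars) and of the 3 genes nearest to it (coloured points), centred on each gene's mean, in control libraries C1 to C3 and knockout libraries K1 to K3. *Il6* and its neighbours are lowest in C3, and *Lif* and its neighbours are lowest in K1 and K2.

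The members also differed from each other. *Il6* was closer to *Osm* than to any other member, with an RMS difference of 0.63, against 1.11 to *Lif*, 1.08 to *Il6ra* and 1.20 to *Il6st*. *Il6ra* and *Il6st*, both of small range on the log2(FPKM + 1) scale, were 0.26 apart. The pseudocount of 1 narrows the range of *Il6ra*, which lay near 1 FPKM.

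Other cytokines that LPS induces were read beside *Il6*. *Il1b*, which encodes interleukin-1β, had levels of 1410, 916 and 653 FPKM in the knockout libraries (1 to 3 in order) and 2625, 1536 and 418 FPKM in the controls. It had the library order of *Il6*, with control library 3 the lowest of all. *Tnf* did not have this order, with 5695, 4872 and 4204 FPKM in the knockout libraries and 3615, 3220 and 4491 FPKM in the controls. *Il12b*, the p40 chain of IL-12 and IL-23, was at 302, 267 and 123 FPKM against 146, 135 and 76.0 FPKM. *Il10*, an anti-inflammatory cytokine, was at 21.4, 13.0 and 7.20 FPKM against 10.6, 7.73 and 5.65 FPKM. Log2 fold changes were -0.33 for *Il1b*, 0.39 for *Tnf*, 0.90 for *Il12b* and 0.64 for *Il10*, with adjusted p of 0.765, 0.212, 0.182 and 0.301 from limma, and in all 4 the groups overlapped. With the replicate number as a block *Il12b* passed (limma, adjusted p = 0.0243), while *Il10*, *Tnf* and *Il1b* had adjusted p of 0.0649, 0.233 and 0.506 in limma. Without control library 1 the sign for *Il1b* turned, to a log2 fold change of 0.24.

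Of the 15 other ligands and receptors of the gp130 family, 10 were in the table and 6 were tested. limma called 0 of the 6, where 7.31% of all genes passed, and 3 had an unadjusted p below 0.05 (2 higher, 1 lower in the knockout libraries), as did 27.6% of all genes. Voom called 0. The median log2 fold change of the 6 was 0.36, against -0.11 over all genes. *Il27*, the p28 chain of IL-27, which signals through gp130, was the highest at 133 ± 42.9 FPKM in the knockout and 75.2 ± 31.7 FPKM in the control libraries (SD, n = 3 each). Its log2 fold change of 0.85 gave 0.195 as its limma adjusted p, and 0.033 with the replicate number as a block. *Il12a*, whose product pairs with EBI3 in IL-35, was at 92.1 ± 26.2 against 57.3 ± 20.3 FPKM (log2 fold change 0.69, limma adjusted p = 0.173). *Il11ra1*, the α receptor for IL-11, was at 35.6 ± 1.24 against 24.3 ± 5.71 FPKM without overlap of the groups (log2 fold change 0.56, limma adjusted p = 0.107). A near-identical second gene of this receptor exists in mice, so its counting is uncertain. *Clcf1*, a ligand that acts through the CNTF receptor and gp130, was without overlap in the other direction, at 1.66 ± 0.356 against 2.70 ± 0.422 FPKM (log2 fold change -0.48, limma adjusted p = 0.106). Groups without overlap were thus found in 2 of the 6, and in 34.1% of all tested genes. The partner chains of gp130 for LIF and OSM were low in PEMs. *Lifr* was between 0.08 and 0.23 FPKM. *Osmr* had levels of 0.35, 1.23 and 0.68 FPKM in the knockout libraries (1 to 3 in order) and between 0.15 and 0.24 FPKM in the controls. Neither reached the filter.

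The list of gp130 signalling genes held 17 genes, all of them tested. limma called 0 of 17, against 7.31% of all genes, with 1 at an unadjusted p below 0.05, against 27.6%. By voom 0 of 17 were called, against 584 of the 9030 genes tested. The median log2 fold change was 0.06, against -0.11 over all genes. *Jak1*, *Jak2* and *Stat3* had log2 fold changes of 0.06, -0.01 and 0.39 (limma adjusted p = 0.777, 0.975 and 0.436). *Socs3*, the feedback inhibitor of gp130, was the most abundant of the list, with 325, 324 and 163 FPKM in the knockout libraries (1 to 3 in order) and 178, 122 and 45.2 FPKM in the controls. Its groups overlapped through knockout library 3 and control library 1. The log2 fold change of 1.37 (SE 0.51) gave 0.139 as its limma adjusted p, and 0.0219 with the replicate number as a block. *Adam17*, whose product sheds the IL-6 receptor, was at 97.3 ± 3.23 FPKM in the knockout and 97.2 ± 26.4 FPKM in the control libraries (SD, n = 3 each), a log2 fold change of 0.04 with a 95% interval from -0.44 to 0.51.

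Regulators of *Il6* transcription and of the decay of its mRNA included genes that passed in both directions. Of the 18 genes, all tested, 5 passed an adjusted p of 0.05, 3 higher and 2 lower in the knockout libraries, where 7.31% of all genes passed. Their median log2 fold change was 0.13, against -0.11 over all genes. Voom called 4, *Irf1*, *Cebpd*, *Ahr* and *Atf3*, where it called 584 of the 9030 genes tested. *Irf1*, an interferon-induced transcription factor, rose from 72.5 ± 6.03 to 176 ± 12.7 FPKM (SD, n = 3 each), a log2 fold change of 1.27 (SE 0.13, limma adjusted p = 0.00651). *Cebpd*, a C/EBP factor that binds the *Il6* promoter, rose from 11.7 ± 1.79 to 21.3 ± 1.75 FPKM (log2 fold change 0.82, limma adjusted p = 0.0254). *Arid5a*, whose product stabilizes *Il6* mRNA, rose from 7.80 ± 2.89 to 20.8 ± 4.90 FPKM (log2 fold change 1.33, limma adjusted p = 0.0345, and 0.0528 by voom). *Zfp36l1*, of the tristetraprolin family of mRNA decay factors, fell from 9.02 ± 2.96 to 2.97 ± 0.675 FPKM (log2 fold change -1.30, limma adjusted p = 0.0297, but 0.0651 by voom and 0.0578 after the rescaling). *Ahr*, the aryl hydrocarbon receptor, fell from 14.5 ± 3.64 to 6.62 ± 0.645 FPKM (log2 fold change -1.002, limma adjusted p = 0.0318). None of the 5 had overlapping groups, and 8 of the 18 did not overlap, against 34.1% of all tested genes.

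The 3 most abundant regulators did not pass in limma with all libraries and neither block nor rescaling. *Zfp36*, which encodes tristetraprolin, had levels of 337, 331 and 170 FPKM in the knockout libraries (1 to 3 in order) and 172, 114 and 86.3 FPKM in the controls. Its log2 fold change of 1.15 gave 0.082 as its limma adjusted p, and 0.0208 with the replicate number as a block. Without knockout library 3 the limma adjusted p of *Zfp36* was 0.0413, and without control library 1 it was 0.0474. *Cebpb* was at 261 ± 26.5 against 233 ± 38.5 FPKM (log2 fold change 0.17, limma adjusted p = 0.521). *Atf3*, a repressor of *Il6*, was at 259 ± 24.8 against 152 ± 39.1 FPKM (log2 fold change 0.79, limma adjusted p = 0.0571). It passed in 3 of 12 alternatives, with adjusted p of 0.0346 after the rescaling, 0.0372 by voom and 0.0104 without control library 3 in limma. The NF-κB genes *Rela* and *Nfkb1* had log2 fold changes of 0.14 and 0.13, and *Zc3h12a*, which encodes the *Il6* mRNA nuclease Regnase-1, of 0.18 (limma adjusted p = 0.631, 0.587 and 0.381). Calls fell both in the list and over all genes when some of the libraries were left out. The list had 0 calls without knockout library 1, 0 without control library 2, 1 without knockout library 2 and 3 without knockout library 3, with 7, 8, 7 and 7 genes at an unadjusted p below 0.05. Over all genes these fits called 30 of 9081, 8 of 9008, 63 of 9016 and 528 of 9024, with 1636, 1773, 1436 and 2354 at an unadjusted p below 0.05. With all libraries 7 of the list and 2494 of all genes had such a p. The list had 6 calls without control library 1 and 6 without control library 3, where 788 of 9077 and 1333 of 9006 genes were called.

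Genes that STAT3 is known to induce were the last list. Of 21 genes 20 were tested and 3 passed, where 7.31% of all genes did, *Pim1* and *Cebpd* higher and *Myc* lower in the knockout libraries. The median log2 fold change of the 20 was 0.22, against -0.11 over all genes. Voom called 3. *Pim1*, a survival kinase, rose from 177 ± 14.2 to 293 ± 23.2 FPKM (log2 fold change 0.72, limma adjusted p = 0.0243). *Myc*, a growth-promoting transcription factor, fell from 12.7 ± 2.79 to 5.26 ± 0.824 FPKM (log2 fold change -1.12, limma adjusted p = 0.0196). *Saa3*, an acute-phase serum amyloid gene and the most abundant of the list, had levels of 2258, 3026 and 3668 FPKM in the knockout libraries (1 to 3 in order) and 20322, 15141 and 3304 FPKM in the controls. Control library 3 lay within the range of the knockout libraries and the other controls far above it, and the log2 fold change of -1.78 did not pass (limma, adjusted p = 0.125). Without control library 3 it was -2.58 (limma, adjusted p = 0.00175). *Il1rn*, the IL-1 receptor antagonist, was at 506 ± 165 against 262 ± 14.9 FPKM (log2 fold change 0.89, limma adjusted p = 0.0788). Leaving out knockout library 1, knockout library 2 or control library 2 brought the calls of this list to 0 in limma, with 8, 8 and 7 genes at an unadjusted p below 0.05, and leaving out control library 3 brought them to 6, where 1333 of 9006 genes were called in all. The first 3 fits called 30 of 9081, 63 of 9016 and 8 of 9008 genes, with 1636, 1436 and 1773 at an unadjusted p below 0.05.

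**Figure D4:**
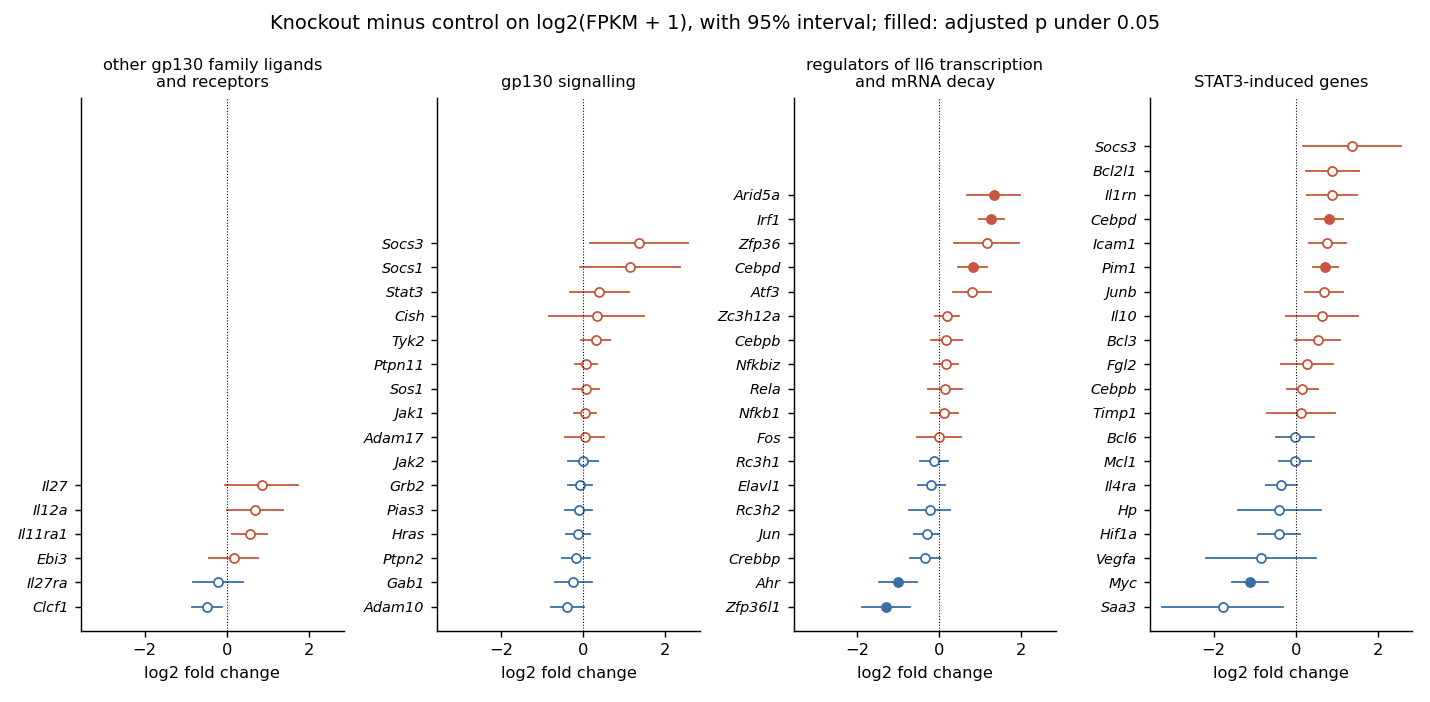
Log2 fold change (horizontal axes, knockout minus control on log2(FPKM + 1)) with its 95% interval in limma for the tested genes of the 4 lists, ordered by size, with 1 signalling gene not drawn. Filled points have an adjusted p below 0.05: 0, 0, 5 and 3 genes from left to right.

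Markers of other cells moved with the groups and within the controls. The summed level of 5 B cell markers was between 2.78 and 5.52 FPKM in the knockout libraries and 115, 78.9 and 27.5 FPKM in control libraries 1 to 3, and 5 of 5 were lower in every knockout library than in any control, as were 23.0% of all tested genes. That of 6 mast cell markers was between 1.89 and 2.27 FPKM against 38.2, 39.0 and 49.3 FPKM, with 6 of 6 lower in every knockout library and *Fcer1a* listed at 0 in some. That of 5 markers of large peritoneal macrophages, *Timd4* included, was between 3.83 and 7.71 FPKM against 143, 89.8 and 34.1 FPKM, with 3 of 5 lower in every knockout library. That of 10 markers of mesothelial cells and fibroblasts, which can make IL-6 and LIF, was between 15.2 and 37.5 FPKM against 2.14, 7.29 and 18.0 FPKM. Here 2 of 10 were higher in every knockout library than in any control, as were 1006 of the 9030 tested genes. Summed neutrophil markers (7 genes) were between 71.2 and 201 against 195 and 459 FPKM, and those of small peritoneal macrophages (4 genes) between 84.1 and 230 against 165 and 385 FPKM. Many of these markers averaged under 1 FPKM in the knockout libraries and could pass the filter through the controls alone, so no calls are counted. T cell and eosinophil markers were near 0, at most 1.18 and 1.07 FPKM in sum. The sums of B cell, T cell, large macrophage and small macrophage markers had the library order of *Il6* within the controls. Those of neutrophil markers, mast cell markers, and mesothelial and fibroblast markers had the opposite order there. The small macrophage sum was mostly *H2-Ab1* (378 of 385 FPKM in control library 1). *Ccr2* and *Cd226* of that list did not have the order of *Il6*. In bulk RNA, fewer cells of a type and less RNA per cell cannot be told apart, and the part of these cells in the levels of the 5 members was not tested.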

How the data were processed

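RNA of PEMs was sequenced in 3 knockout and 3 control libraries, grouped by the sample titles. The authors deposited 1 table. Its values per library are FPKM made by the authors, and its signal columns are the authors' group means of reads divided by DESeq2 size factors. The ratio (fold change), log2 fold change, p-value and q-value columns that the authors deposited hold their own comparison and were not used. The submitters' processing notes name mm9. The aligner, the counting and the annotation are not given in the sources used here, nor is the use of strand.

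FPKM and group means together gave back the whole reads, and 100% of values came within 0.01 of a whole number. FPKM plus 1 was log2 transformed and fitted with limma 3.58.1 (lmFit, eBayes with trend) (R 4.3.3), using the 9030 genes that averaged at least 1 FPKM in one group, with Benjamini-Hochberg adjustment and a threshold of 0.05. Fold changes refer to log2(FPKM + 1) and are too small for low genes. Only the recovery of the reads and this limma fit were tested on simulated data, and the alternatives named below were not. The members and the 4 lists were chosen with earlier results of these data known. The genes named are the members, *Timd4*, *Lyz2*, 4 LPS-induced cytokines, the called genes and the 3 most abundant genes of each list, and the 3 genes nearest to each member. The remaining list genes in the text were picked with their values known. The values of 1 signalling gene, which is in the counts and the median of its list, are not reported here. The alternatives were a pseudocount of 0.1, no filter, a filter of 10 reads in every library, the replicate block, the rescaling, voom, and each library left out.

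Deviations of same-numbered libraries from their group means correlated across genes at 0.109, 0.110 and 0.304, all above 0.1, so the block was read as a paired fit. Knockout library 2 correlated more with control library 1 (0.291), and the labels do not say what the numbers share. *Lyz2*, which carries Cre, had 41.4, 4656 and 106 FPKM in the knockout libraries in order and between 7090 and 8482 FPKM in the controls.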

Additional observations from a re-analysis of the deposited data

How the results depend on the processing

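Of 60 alternative fits of the 5 members, 58 kept the direction and the side of the threshold, 2 brought a member past it and 0 reversed a sign. The 2 were *Il6* without control library 3 (log2 fold change -1.79) and *Lif* without knockout library 3 (-1.20). With each library left out, *Il6* ran from -1.79 to -0.23 and *Lif* from -1.20 to -0.44. With the replicate number as a block, which changed no call of a member, 1 of the 6 other ligands and receptors (*Il27*) and 1 of the 17 signalling genes (*Socs3*) passed, where 0 had passed without it, and 855 of all genes passed in place of 660. After the rescaling 1 of the 6 other ligands and receptors passed (*Il11ra1*). The share of higher calls over all genes rose from 35.2% to 48.6% under this scaling. With no filter, 2 of the 18 regulators of *Il6* passed in place of 5, and 446 of all 15415 genes in place of 660 of 9030. With each library left out, calls ran from 0 to 2 for the other ligands and receptors, from 0 to 6 for the regulators, from 0 to 6 for the STAT3-induced genes, and from 8 (without control library 2) to 1333 (without control library 3) for all genes, and the cause was not tested. The other alternatives left these counts within 1.5 times. *Il6ra* had the fewest reads of the members, 95 to 199 per library.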

Other observations

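Ratios of levels within a library, which were chosen after the values had been seen, set the members against each other without the scaling of the library, and are given as values with no test. *Il6* over *Tnf* was 0.0942, 0.0820 and 0.0851 in the knockout libraries, a narrow range, and 0.534, 0.348 and 0.0490 in the controls. *Il6* over *Il1b* was 0.380, 0.436 and 0.548 against 0.736, 0.730 and 0.527, where control library 3 fell within the knockout range. *Osm* over *Lif* ran from 1.31 to 7.07 in the knockout and from 1.57 to 3.78 in the control libraries. *Il6* over *Osm* ran from 26.1 to 33.7 against 17.1 to 64.4, and *Il6* over *Lif* from 44.0 to 185 against 26.7 to 243. The groups overlapped in each of these 5 ratios. *Il6st* over *Il6ra* was 8.77, 10.6 and 6.81 in knockout libraries 1 to 3 and 4.91, 4.56 and 4.95 in control libraries 1 to 3, where *Il6ra*, the denominator, had passed the filter through the control group alone.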
